A study of Mus musculus with 6 samples.

Results

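miR-378 and miR-22 are hepatic miRNAs tied to energy metabolism, and their entries were taken from the table of mature liver miRNAs by name, as every entry whose name starts with mmu-miR-378 or mmu-miR-22-. The rule found 7 of 1039 entries, or 7 of the 762 with a mouse name, namely mmu-miR-22-3p, mmu-miR-22-5p, mmu-miR-378a-3p, mmu-miR-378a-5p, mmu-miR-378b, mmu-miR-378c and mmu-miR-378d. The rule itself uses names and no measured value. Livers came from wild type mice of the outbred ICR stock at 30 weeks of age, and all mice of both groups were on high-fat diet (HFD), which was given for 12 weeks before gavage began and was continued during it. The J group then received JTXK granule, a Chinese herbal formula, by gavage for 8 weeks, and the M group received sterile water in its place. Small RNA was sequenced from 3 livers of each group, 1 library per mouse, and these mice were a subset of the animals of each group. No library from chow-fed mice was analysed here, so the comparison is of gavage with and without JTXK in HFD-fed mice. All 3 J libraries and all 3 M libraries entered every comparison unless one is named as left out. Values listed for the mice of a group are in the order of replicates 1 to 3.

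A miRNA hairpin gives 2 arms, named 5p and 3p, and the arm loaded into the silencing complex finds its target mRNAs mainly by its seed, bases 2 to 8 of the mature strand. miR-378a is made from an intron of Ppargc1b, the gene of the coactivator PGC-1β, which drives mitochondrial and fatty acid oxidation genes. Its 3p arm is known to act on Crat, an enzyme of mitochondrial acyl group transport, and its 5p arm on Med13, a subunit of the Mediator complex that holds back nuclear receptor targets. miR-378b, miR-378c and miR-378d are relatives of the miR-378a 3p arm made from other loci. miR-22 is an abundant miRNA of muscle, heart and liver, and its known targets include Sirt1, a deacetylase of fasting metabolism, and Ppara, the nuclear receptor of hepatic fatty acid oxidation. These roles are background and were not measured here.

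The mature sequences below show how the miR-378 relatives differ from each other and that the arms of miR-22 carry different seeds. Sequences and positions are those of RefSeq for GRCm38.p6, 5′ to 3′, with the seed (bases 2 to 8) in capitals, and 5 of the 7 members matched an entry there, so miR-378a-3p and miR-378a-5p are named only.
mmu-miR-22-3p: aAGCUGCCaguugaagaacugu
mmu-miR-22-5p: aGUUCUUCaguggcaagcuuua
mmu-miR-378b: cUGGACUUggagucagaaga
mmu-miR-378c: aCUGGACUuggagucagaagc
mmu-miR-378d: aCUGGCCUuggagucagaaggu

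miR-378b and miR-378c share an unbroken run of 19 bases. miR-378b begins with that run and miR-378c begins 1 base before it, so their 7-base seeds are not the same. miR-378d shares runs of 14 bases with miR-378b and with miR-378c, and its seed differs from both. The mature strands lie at chr11:75463772-75463793 (miR-22-3p, plus strand), chr11:75463734-75463755 (miR-22-5p, plus strand), chr11:88352839-88352858 (miR-378b, plus strand), chr14:46954905-46954925 (miR-378c, minus strand) and chr10:126710355-126710376 (miR-378d, minus strand). The rule by which reads that match several miR-378 relatives were assigned is not given in the sources used here, so the split of reads between them is uncertain. Also not given is whether the value of an entry with a suffix after its miRNA name, which 5 of the 7 carry, covers all reads of that miRNA or the suffixed form alone. The suffix of miR-22-3p holds the positions 4 and 22, and those of miR-378a-3p and miR-378d name a single-base substitution. The levels, their order and the arm ratios below are those of the entries as listed.

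Each library held 2626353 to 4314134 miRNA reads, and the level of a miRNA is given as RPM, its reads over all miRNA reads of its library, scaled so that each library sums to 1000000. A single read was worth 0.232 to 0.381 RPM, and the limit of 3 reads was 0.695 to 1.14 RPM. Counting intervals and this limit cover counting error only, because copies made by PCR were not told apart. The hepatocyte markers (miR-122-5p, miR-122-3p, miR-192-5p and miR-194-5p) were all in the table, and together they summed to 329007 to 378100 RPM in the J libraries and 333259 to 379781 RPM in the M libraries. M group replicate 1 stood apart in the summed RPM of marker lists of other cells. It had the highest sums of the immune cell list (4224 RPM against 594 to 1072 RPM in the other libraries, 4 of 4 markers in the table), the stromal list (25242 against 12582 to 20214 RPM, 4 of 5), the bile duct list (4298 against 950 to 2379 RPM, 5 of 5) and the skeletal and heart muscle list (23.2 against 3.56 to 5.86 RPM, 4 of 7). A sum follows its most abundant entries, and the markers of a list did not all vary alike. In the M group miR-142a-5p had 1784 ± 1672 RPM, miR-223-3p 32.9 ± 6.89 RPM and miR-150-5p 37.3 ± 10.8 RPM (SD, n = 3). From the bile duct list, miR-200b-3p had 1320 ± 799 RPM there and miR-141-3p 102 ± 4.96 RPM. From the stromal list, miR-143-3p had 13772 ± 4360 RPM and miR-199a-5p 1040.5 ± 42.8 RPM. None of the markers in the table was at 0 in all 6 libraries. In bulk liver, fewer cells of a type and less of a miRNA per cell cannot be told apart.

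From miR-22-3p to miR-378d the levels covered more than 3 orders of magnitude, and the order of their levels was the same in 6 of 6 libraries. miR-22-3p was the most abundant, followed by miR-378a-3p, miR-378c, miR-378a-5p, miR-22-5p, miR-378d and miR-378b. RPM counts reads and is not divided by length, and the mature strands with a sequence above are 20 to 22 bases long. Over all libraries the mean RPM of miR-22-3p was 3.54 times that of miR-378a-3p, which in turn was 8.63 times that of miR-378c. The next steps down were 4.09 times from miR-378c to miR-378a-5p, 2.33 times from miR-378a-5p to miR-22-5p and 19.4 times from miR-22-5p to miR-378d. No ratio is given to miR-378b, which did not exceed 3 reads in any library. For each of these neighbours the lowest library of the upper member lay above the highest library of the lower one. At the bottom this rests on few reads, since miR-378d had as few as 3 reads and miR-378b as many as 3, so the counting intervals of the lowest miR-378d library and the highest miR-378b library overlap. The 7 members together took 1.89%, 3.0% and 2.42% of the miRNA reads of the J mice and 1.44%, 2.04% and 2.43% of those of the M mice.

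**Figure D1:**
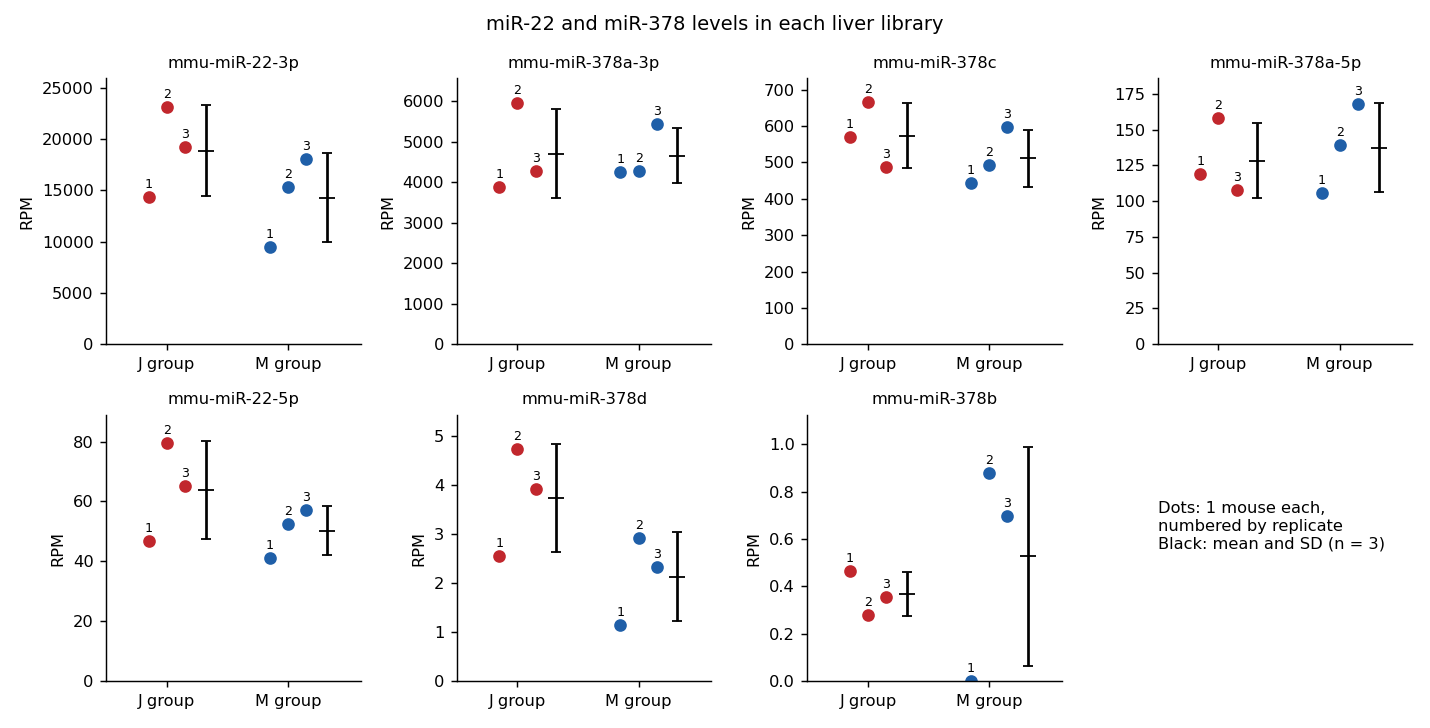
Level of each member in RPM (vertical axis, from 0, a separate scale per panel) in the 3 J and 3 M libraries. Each dot is 1 mouse with its replicate number, and the black bar is the mean with its SD (n = 3). The J and M libraries overlap for all 7 members, J group replicate 2 is the highest for 5 of them, and M group replicate 1 is the lowest for 6.

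mmu-miR-22-3p, the main arm of miR-22, had 14325, 23152 and 19210 RPM in the J mice, from 61800, 82940 and 53886 reads. The M mice had 9508, 15377 and 18038 RPM, from 24972, 52450 and 77485 reads. The highest J library was 2.43 times the lowest M library, but J group replicate 1 lay below M group replicates 2 and 3, so the groups overlap. It ranked between 9 and 17 among all entries of a library by level, and it took 0.951% to 2.32% of the miRNA reads. The J mean was 18895 ± 4422 RPM and the M mean 14308 ± 4364 RPM (SD, n = 3), a ratio of 1.32. The log2 fold change, J over M, was 0.42 (SE 0.28, 95% interval −0.23 to 1.07), with an adjusted p of 0.710 by limma with Benjamini-Hochberg adjustment. On the linear scale the fitted ratio of 1.34 has an interval from 0.855 to 2.11. Without J group replicate 2, its highest library, the log2 fold change was 0.26. Without M group replicate 1, in which the immune, stromal, bile duct and muscle marker sums were highest, the log2 fold change was 0.15, and the part of those cells in the difference was not tested.

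mmu-miR-22-5p, the minor arm of the same hairpin, had 46.8, 79.6 and 65.2 RPM in the J mice, while the M mice had 41.1, 52.5 and 57.0 RPM, from 108 to 285 reads. J group replicate 1 lay between M group replicates 1 and 2, so the groups overlap here as well. The means were 63.9 ± 16.4 RPM and 50.2 ± 8.19 RPM (SD, n = 3). Its log2 fold change was 0.32 (SE 0.29, 95% interval −0.35 to 0.99), adjusted p = 0.722 by limma with Benjamini-Hochberg adjustment, and it was 0.15 without J group replicate 2 and 0.19 without M group replicate 1. Mir22 is annotated on chromosome 11 from 75463716 to 75463810 in GRCm38, plus strand, a hairpin of 95 bp within an exon of the non-coding host Mir22hg and within an exon of Tlcd2 on the same strand.

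mmu-miR-378a-3p, the arm that represents most of the miR-378 signal, had 3884, 5962 and 4277 RPM in the J mice, beside 4254, 4285 and 5447 RPM in the M mice. These values came from 11172 to 23397 reads, and the miRNA ranked between 23 and 32 in a library. The lowest and the highest library were both of the J group, so the M libraries lay inside the J range. The means of 4707 ± 1104 RPM and 4662 ± 680 RPM (SD, n = 3) had a ratio of 1.01. The log2 fold change was −0.0012 (SE 0.21, 95% interval −0.49 to 0.49), adjusted p = 0.995 by limma with Benjamini-Hochberg adjustment, and it was −0.18 without J group replicate 2 and −0.06 without M group replicate 1. The interval spans ratios of 0.713 to 1.40, so with 3 mice a group a change within those limits remains compatible with these values. Median-of-ratios scaling and quantile normalization moved the median of all miRNAs tested from −0.13 to −0.04 and 0.08, and the value of miR-378a-3p to 0.11 and 0.22. miR-378a-3p made up 84.9% to 88.6% of the RPM of all 5 miR-378 entries of a library. That sum had a J mean of 5414 ± 1201 RPM and an M mean of 5313 ± 783 RPM (SD, n = 3), a ratio of 1.02.

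mmu-miR-378a-5p had 119, 158 and 108 RPM in the J mice, whereas the M mice had 105, 139 and 168 RPM, from 277 to 721 reads. It is one of the 2 members whose highest library was not J group replicate 2, as M group replicate 3 was the highest. The means were 128 ± 26.3 RPM and 137 ± 31.2 RPM (SD, n = 3). Its log2 fold change was −0.09 (SE 0.27, 95% interval −0.73 to 0.54), adjusted p = 0.903 by limma with Benjamini-Hochberg adjustment, and it was −0.25 without J group replicate 2 and −0.27 without M group replicate 1. With the same shift of all miRNAs it was 0.01 under median-of-ratios scaling and 0.16 under quantile normalization. Mir378a is annotated on chromosome 18 from 61397835 to 61397900 in GRCm38, minus strand, in an intron of Ppargc1b on the same strand, with the miRNA gene Gm25301 annotated on the opposite strand.

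mmu-miR-378c, the next most abundant miR-378 entry after miR-378a-3p, had 569, 665 and 488 RPM in the J mice and 443, 494 and 597 RPM in the M mice, from 1163 to 2564 reads. Its J libraries overlap the M libraries, with M group replicate 3 above J group replicates 1 and 3. The means were 574 ± 88.8 RPM and 511 ± 78.5 RPM (SD, n = 3), and the log2 fold change was 0.17 (SE 0.21, 95% interval −0.33 to 0.67), adjusted p = 0.810 by limma with Benjamini-Hochberg adjustment, and it was 0.06 without J group replicate 2 and 0.07 without M group replicate 1. Mir378c is annotated on chromosome 14 from 46954830 to 46954928 in GRCm38, minus strand, within an intron of Samd4, which is on the opposite strand.

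mmu-miR-378d was near the counting limit, with 2.55, 4.75 and 3.92 RPM in the J mice and 1.14, 2.93 and 2.33 RPM in the M mice, from 3 to 17 reads. Its highest library (17 reads, 95% Wilson interval 2.96 to 7.60 RPM) and its lowest (3 reads, 0.388 to 3.36 RPM) have overlapping counting intervals. The means of 3.74 ± 1.11 RPM and 2.13 ± 0.910 RPM (SD, n = 3) had the highest ratio among the members, 1.75. Its log2 fold change on log2(RPM + 1) was 0.61 (SE 0.37, 95% interval −0.26 to 1.49), adjusted p = 0.710 by limma with Benjamini-Hochberg adjustment, and the added 1 RPM brings it closer to 0. J group replicate 1 lay below M group replicate 2, so the groups overlap, and without M group replicate 1, the lowest library, the log2 fold change was 0.36. Mir378d is annotated on chromosome 10 from 126710282 to 126710391 in GRCm38, minus strand, outside any other annotated gene.

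mmu-miR-378b was at or below the 3-read limit in every library. The J mice had 2, 1 and 1 reads and the M mice 0, 3 and 3 reads, which is 0.464, 0.279, 0.356, 0, 0.880 and 0.698 RPM. For the 0 in M group replicate 1 the limit of 3 reads is 1.14 RPM, and the upper bound of the 95% Wilson interval is 1.46 RPM. miR-378b was the member that did not reach a mean of 1 RPM in either group, so it was left out of the test and no fold is given. It was fitted only in the alternative without a filter, where it did not pass the thresholds. Mir378b is annotated on chromosome 11 from 88352773 to 88352864 in GRCm38, plus strand, within an intron of Msi2, which is on the opposite strand.

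The spread between mice was far larger than the counting error for the abundant members and about as large for miR-378d. For miR-22-3p the counting error was 0.395% of the level in the J group and 0.490% in the M group, against 23.4% and 30.5% between mice. For miR-378a-3p it was 0.796% and 0.818%, against 23.4% and 14.6% between mice. For miR-378a-5p it was 4.84% and 4.87%, against 20.5% and 22.7%, and for miR-22-5p 6.81% and 7.94%, against 25.7% and 16.3%. For miR-378d it was 28.3% and 42.2%, against 29.7% and 42.7% between mice. Among 138 tested miRNAs with a mean of at least 100 RPM, the SD within groups on the log2 scale had a median of 0.28. It was 0.42 for miR-22-3p, and 71.7% of these miRNAs had a smaller one. The SD was 0.31 for miR-378a-5p, 0.27 for miR-378a-3p and 0.22 for miR-378c.

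Of the 6 members tested, 4 were higher in the J group by their fitted value and 2 were lower, and 0 passed the thresholds of an absolute log2 fold change above 0.3 with an unadjusted p under 0.05. Among all 548 miRNAs tested, 29 passed (5.29%), 8 higher and 21 lower in the J group, so 0 of 6 is near this background. By adjusted p under 0.05 (limma, Benjamini-Hochberg) 0 of the 6 members and 0 of the 548 miRNAs (0%) were called, and 29 of the 548 had an unadjusted p under 0.05. On the recovered reads edgeR called 0 and DESeq2 called 2 of the 548 by adjusted p. The J and M libraries were separate for 0 of the 6 members and for 74 of the 548 miRNAs (13.5%). The members had a median log2 fold change of 0.24, and all 548 miRNAs one of −0.13, of which 225 (41.1%) were higher in the J group. Relative to that median, miR-378d stood at 0.75, miR-22-3p at 0.56, miR-22-5p at 0.45, miR-378c at 0.30, miR-378a-3p at 0.13 and miR-378a-5p at 0.04. miR-22-3p had a higher log2 fold change than 88.1% of the 548 miRNAs, miR-378d than 94.3% and miR-378a-3p than 58.8%. Nothing particular to the members is read from these positions.

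**Figure D2:**
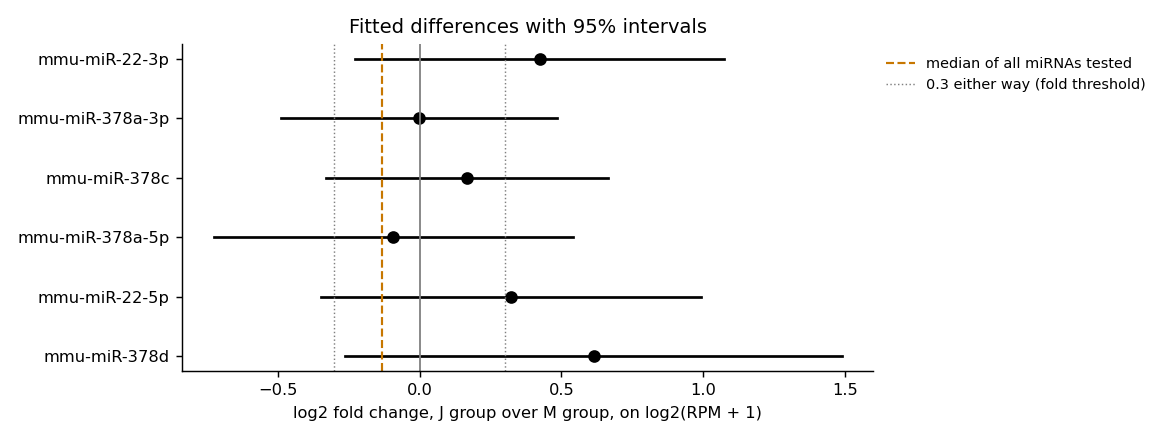
Fitted log2 fold change, J group over M group, on log2(RPM + 1) for the 6 members tested (dots), with 95% intervals from limma on 3 mice a group (lines). The dashed line is the median of all 548 miRNAs (−0.13) and the dotted lines mark 0.3 either way. All 6 intervals include 0, and the fitted values run from miR-378a-5p at −0.09 to miR-378d at 0.61.

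Ratios of RPM within a library do not depend on a scaling by 1 factor per library, and 3 were compared between the groups. The ratios listed are of the RPM as deposited. The log2 differences and tests used log2 ratios with 1 RPM added to each level, which leaves a small dependence on scaling where a level is low. miR-22-3p per miR-378a-3p was 3.69, 3.88 and 4.49 in the J mice, against 2.24, 3.59 and 3.31 in the M mice. The J ratios all exceeded the M ratios, although J group replicate 1 and M group replicate 2 differed by little. The means were 4.02 ± 0.419 in the J group and 3.05 ± 0.715 in the M group (SD, n = 3). The difference of the log2 ratios was 0.43, with a two-sided exact permutation p of 0.1, the smallest that the 10 splits of 3 against 3 allow, and 0.3 after Benjamini-Hochberg adjustment over the 3 ratios. Without M group replicate 1 the difference was 0.22.

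Both arm ratios overlapped between the groups. miR-22-3p per miR-22-5p was 306, 291 and 294 in the J mice, with 231, 293 and 316 in the M mice. Of these 6 libraries, 5 lay between 291 and 316, and M group replicate 1 lay below them. The log2 difference was 0.10 (exact permutation p = 0.8, adjusted 0.8), and it turned to −0.03 without M group replicate 1. Quantile normalization, which does not keep such ratios, gave log2 fold changes of 0.51 for the 3p arm and 0.60 for the 5p arm of miR-22. miR-378a-3p per miR-378a-5p was 32.7, 37.7 and 39.6 in the J mice, while the M mice had 40.3, 30.8 and 32.5. Its log2 difference was 0.09 (exact permutation p = 0.7, adjusted 0.8), with means of 36.7 ± 3.55 and 34.5 ± 5.08 (SD, n = 3), and it was 0.21 without M group replicate 1 and 0.02 without M group replicate 2.

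Both hairpins favoured the 3p arm in every library. For 179 mouse hairpins with both arms in the table, at least 1 arm had a mean above 1 RPM in a group. Their arm bias was taken from the mean RPM over all libraries, with 1 RPM added to each arm, which lowers it most for rare arms. By this measure the more abundant arm exceeded the other by a median of 10.2-fold. By the same measure, which is not the mean of the library ratios above, the arm bias was 286-fold for miR-22 and 35.0-fold for miR-378a. Of the 179 hairpins, 21 and 53 had a larger bias. The level of miR-378c for each 100 RPM of miR-378a-3p was 14.7, 11.2 and 11.4 in the J mice, while the M mice had 10.4, 11.5 and 10.96. J group replicate 1 was the highest and the other 5 libraries spanned 10.4 to 11.5. This ratio was chosen after its values were seen, and no test was made of it.

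**Figure D3:**
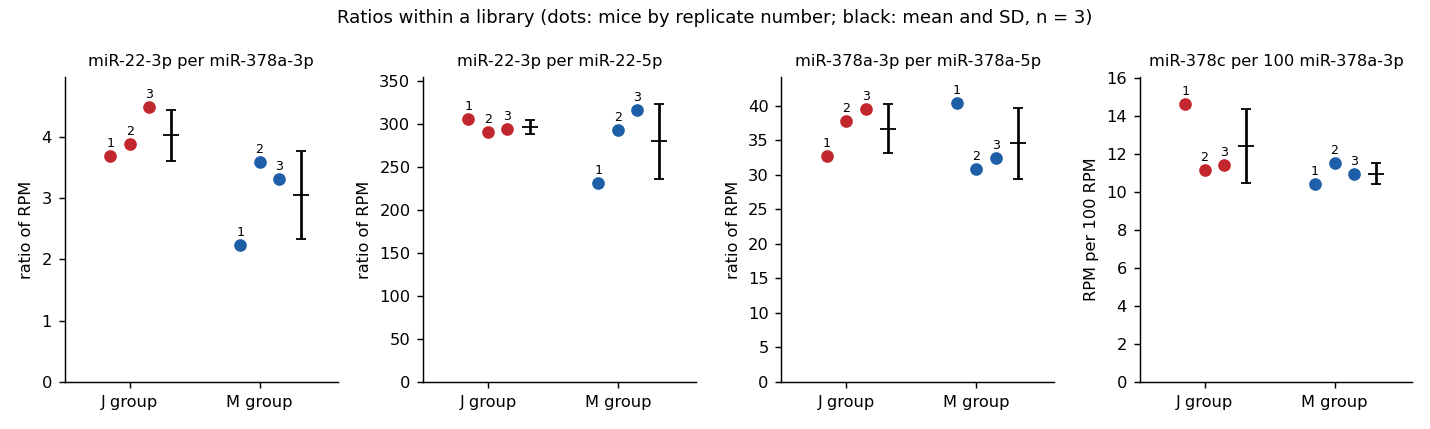
Ratios of levels within each library (vertical axes, from 0), for miR-22-3p per miR-378a-3p, the arms of miR-22, the arms of miR-378a and miR-378c per 100 RPM of miR-378a-3p. Each dot is 1 mouse with its replicate number and the black bar is the mean with its SD (n = 3). In the left panel the J libraries (3.69 to 4.49) sit above the M libraries (2.24 to 3.59), and in the other panels the groups overlap.

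The miRNAs whose library profile was most like that of a member were found among the 134 tested miRNAs with a mean of at least 100 RPM that are not members, as those with the smallest root-mean-square difference of log2(RPM + 1) over the 6 libraries after centring. For miR-378a-3p these were miR-126a-3p, an endothelial miRNA (0.073), miR-10a-5p from a Hox cluster (0.11) and miR-28a-3p (0.12), where the median of the candidates was 0.34. Its own 5p arm stood at 0.15 from it, miR-378c at 0.16 and miR-22-3p at 0.31. miR-126a-3p had J and M means of 5326 ± 1292 and 4942 ± 568 RPM (SD, n = 3). For miR-22-3p they were miR-30d-5p (0.12), miR-1948-3p (0.19) and miR-322-3p (0.19), with a median of 0.51. miR-30d-5p had 8829 ± 2361 and 6240 ± 2076 RPM (SD, n = 3), a log2 fold change of 0.53 with an adjusted p of 0.710 by limma with Benjamini-Hochberg adjustment. All 3 miRNAs most like miR-22-3p had their lowest value in M group replicate 1, as miR-22-3p did. Their choice by library profile makes a shared lowest library likely, so nothing further is read from it. These are descriptions over 6 libraries of unequal depth, and all profiles rest on the same RPM scaling.

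Of 22 other miRNAs with known roles in hepatic glucose and lipid metabolism, all tested, 1 passed the thresholds, against 5.29% of all 548, while 2 passed under median-of-ratios scaling and 3 by edgeR. Of the 22, 5 had a positive log2 fold change, with a median of −0.21, where 41.1% of all 548 were positive and their median was −0.13. Under quantile normalization 9 of the 22 were positive, with a median of −0.05, against 54.2% and a median of 0.08 over all miRNAs. The miRNA that passed was miR-96-5p, known to act on the insulin pathway, with J and M means of 339 ± 239 and 963 ± 527 RPM (SD, n = 3). Its log2 fold change was −1.60 (SE 0.59, adjusted p = 0.710 by limma with Benjamini-Hochberg adjustment). Of a further list of 13 intronic miRNAs, from introns of metabolic or muscle genes and, for miR-26a and miR-26b, of the Ctdsp phosphatase genes, 9 were in the table and 8 were tested. Of these 0 passed, against the same 5.29%, and 0 had a positive log2 fold change, with a median of −0.20 beside the −0.13 of all miRNAs. Under quantile normalization 3 of the 8 were positive, with a median of −0.09, and under median-of-ratios scaling 2 were, with a median of −0.10. The most abundant of them were miR-26a-5p (14724 ± 2305 and 16259 ± 2306 RPM) and miR-26b-5p (2781 ± 262 and 2937 ± 279 RPM, SD, n = 3), with log2 fold changes of −0.15 and −0.08.

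Among the markers of other cells, 3 of 4 tested stromal miRNAs passed the thresholds, all lower in the J group, where 29 of all 548 (5.29%) passed and 21 of these were lower. They were miR-199a-5p (675 ± 43.8 and 1040.5 ± 42.8 RPM, log2 fold change −0.63), miR-214-3p (−0.55) and miR-145a-5p (−0.46), with adjusted p of 0.432, 0.710 and 0.710 by limma with Benjamini-Hochberg adjustment. Of the 4, 1 passed under median-of-ratios scaling, by edgeR and by DESeq2, and 0 under quantile normalization, with all 4 still negative. In the immune, red blood cell, endothelial, bile duct, hepatocyte and muscle lists 0 markers passed by limma on the RPM as deposited. By edgeR and by DESeq2 1 immune marker passed, lower in the J group, and by edgeR and under median-of-ratios scaling 1 hepatocyte marker passed, higher in the J group. The red blood cell list summed to 5766 to 8595 RPM in the J libraries and 3868 to 12937 RPM in the M libraries. The endothelial list, of which miR-126a-3p alone counted, had its highest value in J group replicate 2, the library in which miR-22-3p, miR-378a-3p, miR-378c, miR-22-5p and miR-378d were highest. The part of these cells in the members' values was not tested.

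The direction of 4 members held under every alternative that tested them, and that of miR-378a did not. miR-22-3p stayed between 0.15 and 0.62 on the log2 scale over 18 alternatives, miR-22-5p between 0.15 and 0.60, miR-378c between 0.06 and 0.49, and miR-378d between 0.18 and 0.86 over 17. miR-378a-3p ranged from −0.18 to 0.22 and miR-378a-5p from −0.27 to 0.16. The lowest value of miR-22-3p was the one without M group replicate 1.

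**Figure D4:**
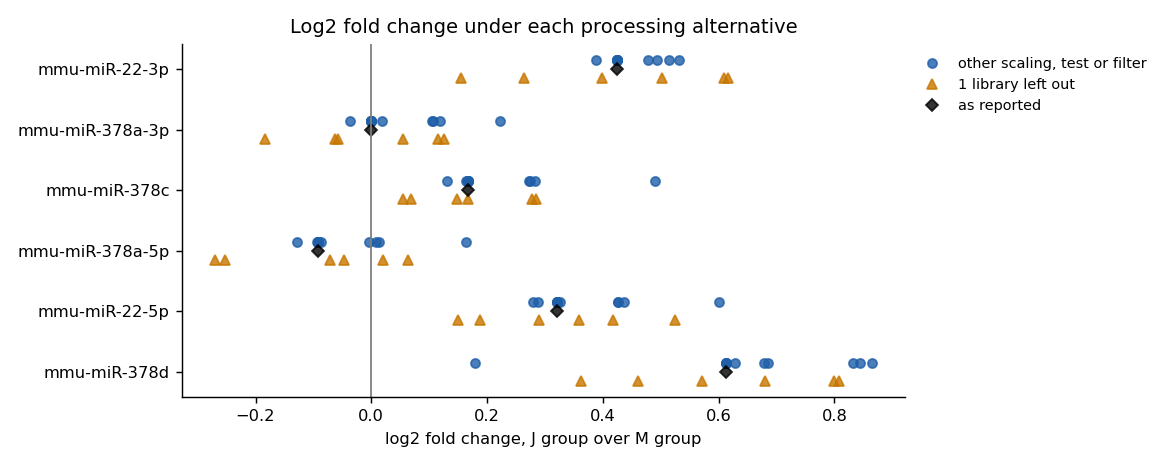
Log2 fold change, J group over M group, of the 6 members tested as reported (diamonds), under other scalings, tests or filters (circles) and with 1 library left out (triangles). miR-22-3p, miR-22-5p, miR-378c and miR-378d stay above 0 throughout, and the values of miR-378a-3p (−0.18 to 0.22) and miR-378a-5p (−0.27 to 0.16) fall on both sides of 0.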

How the data were processed

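Small RNA libraries of 6 livers were made with a NEBNext kit and sequenced on an Illumina HiSeq. After read filtering, the authors matched unique reads to Rfam and miRBase, and they deposited the values as RPM, in which the miRNA reads of each library sum to 1000000, with the libraries kept apart. The submitters' processing notes name the genome build mm9, and the table holds no coordinates. Of its per-sample columns, 0 could not be mapped to a sample. Of the 7 members, 5 carry a suffix after the miRNA name, for miR-378a-3p and miR-378d with a single-base substitution, and the meaning of the suffix is not given in the sources used here. All values were whole multiples of the RPM of 1 read within 0.02, so reads were recovered (100% of values).

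Differences, J over M, were fitted on log2(RPM + 1) with limma 3.58.1 (R 4.3.3, lmFit and trended eBayes, two-sided, no covariate) for the 548 miRNAs whose mean exceeded 1 RPM in a group, with Benjamini-Hochberg adjustment over all 548. The thresholds were those of the study. Ratios were compared on the log2 scale, with 1 RPM added to each level, by two-sided exact permutation over 10 splits. Counting intervals are 95% Wilson intervals. Alternatives were an added 0.1 or 10 RPM, no filter, a filter at 10 RPM, quantile normalization, median-of-ratios scaling, leaving the most abundant miRNA out of the RPM, a linear model without moderation, edgeR 4.0.16, DESeq2 1.42.0, a replicate block, mouse miRNAs alone, summed miR-378 entries and each library left out. The lists were also counted under the other scalings and tools, an alternative chosen after seeing the data. The fit was tested on simulated data. Python 3.11.15, numpy 2.4.6, pandas 2.3.3, scipy 1.17.1 and matplotlib 3.10.9 were used.

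The members and lists were chosen with earlier results of these data known. The text names every member, the 3 miRNAs most alike to miR-378a-3p and to miR-22-3p, and, of each list, the miRNAs past the thresholds or otherwise the 2 of highest mean RPM, except that the marker lists without a miRNA past the thresholds are given as sums. Hairpin positions were taken from GENCODE for GRCm38. Gene expression of the hosts and targets was not analysed here.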

Additional observations from a re-analysis of the deposited data

How the results depend on the processing

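miR-22-5p, miR-378c and miR-378d kept their direction and stayed below the thresholds under all alternatives that tested them, and miR-378d was not tested with the filter at 10 RPM. miR-22-3p kept its direction under 18 of 18, and it passed the thresholds under the replicate block (log2 fold change 0.42, unadjusted p = 0.0334, adjusted p = 0.72 by limma). The same-numbered libraries did not deviate together (correlations 0.0453, 0.0584 and −0.00587), so the numbers do not pair the mice, and the block left 27 miRNAs past the thresholds in place of 29. miR-378a-3p turned positive under quantile normalization (0.22) and median-of-ratios scaling (0.11), by edgeR (0.11) and DESeq2 (0.12), and without J group replicate 1 (0.12), J group replicate 3 (0.06) or M group replicate 3 (0.12). The sum of the miR-378 entries other than the 5p arm, another quantity, had a log2 fold change of 0.018. miR-378a-5p turned positive under median-of-ratios scaling (0.013), quantile normalization (0.16) and DESeq2 (0.0075), and without J group replicate 3 (0.02) or M group replicate 3 (0.063). With each library left out, the values spanned 0.15 to 0.62 for miR-22-3p, −0.18 to 0.12 for miR-378a-3p and −0.27 to 0.063 for miR-378a-5p. The log2 differences of the ratios spanned 0.22 to 0.56 for miR-22-3p per miR-378a-3p, −0.033 to 0.20 for the arms of miR-22 and 0.02 to 0.21 for the arms of miR-378a. The count of miRNAs past the thresholds was 45 by edgeR (18 higher, 27 lower) and 21 to 46 with a library left out, with 46 without M group replicate 2. Its split was 8 higher and 21 lower as reported, 17 and 13 under median-of-ratios scaling and 20 and 11 under quantile normalization, and the median of all miRNAs was −0.13, −0.04 and 0.08 under these scalings. The causes of these shifts were not tested. With 3 mice a group the intervals of the members are wide, and read counts limit miR-378b and miR-378d most.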
